A study of Solanum chacoense with 24 samples.

Results

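The mean leaf expression of 6 F2 lines was set against the mean of their parents in a cross within Solanum chacoense, a diploid wild potato. All 24 libraries of the series entered the comparison, 18 from F2 plants and 6 from parental plants. The resistant parent is USDA8380-1 (80-1) and the susceptible parent is the inbred line M6, where resistance means resistance to the Colorado potato beetle. The F2 lines were EE501F2_089, EE501F2_516 and EE501F2_641, labelled resistant, and EE501F2_093, EE501F2_099 and EE501F2_500, labelled susceptible. They came from the extremes of a field trial, so they are not a random draw from the F2 population. Each of the 8 lines is 1 individual, multiplied in vitro and represented by 3 plants. All plants shared a growth chamber at 20 °C with 16 h of light and 70% relative humidity, with no other treatment named, and leaflets of the fourth fully expanded leaf were taken 16 weeks after transplanting. The comparison follows the design of the cross and not a rule on measured values, but earlier results of these data were known.

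The mid-parent is the average of the parental levels. In a second generation the alleles of both parents segregate, and where alleles act additively the average over many F2 plants is expected at the arithmetic mid-parent. Dominance, interaction between loci and alleles carried by a heterozygous parent but not passed on are textbook reasons for another value. The arithmetic mid-parent is the one that additive action predicts, whereas a difference of mean log levels refers to the geometric mid-parent, which is lower wherever the parents differ. Both were tested. With 6 lines, the allele shares at a locus need not be equal. At gene models that differ between the parents, unequal allele shares and non-additive expression cannot be told apart in this design. In leaf RNA taken in bulk, fewer cells of a type and less RNA per cell cannot be told apart either.

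The library totals, in units of 1e6 counts, were 23.6 to 40.8, except in EE501F2_093 with 60.7 to 77.1. Levels are given as CPM, counts per 1e6 counts of the library total after TMM scaling, which adjusts for differences in library composition. The files do not pair the identifiers of the gene models with names, so the models are given by identifier and position, and the labelled leaf tissue was not checked against marker genes. The positions are those of the deposited table, whose genome build is not given in the sources used here.

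The F2 lines did not lie around the mid-parent in the leading pattern of variation. On the first principal component of log2 CPM (24.5% of the variance) 80-1 averaged 86.4 and M6 25.7, which puts the mid-parent at 56.0. The 6 F2 lines averaged -18.7 ± 61.6 (SD, n = 6 lines), from -120 in EE501F2_516 to 47.9 in EE501F2_641. All 6 line means thus lay below the mid-parent on this component. EE501F2_641 and the plants of EE501F2_093 (54.3, 39.8 and 31.9) still lay between the parental means, while the other line means lay below both. The second component (18.4%) held the parents far apart, 80-1 at -74.2 and M6 at 113, with the mid-parent at 19.2 and the F2 lines at -6.41 ± 30.4 (SD, n = 6), between the parents.

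**Figure D1:**
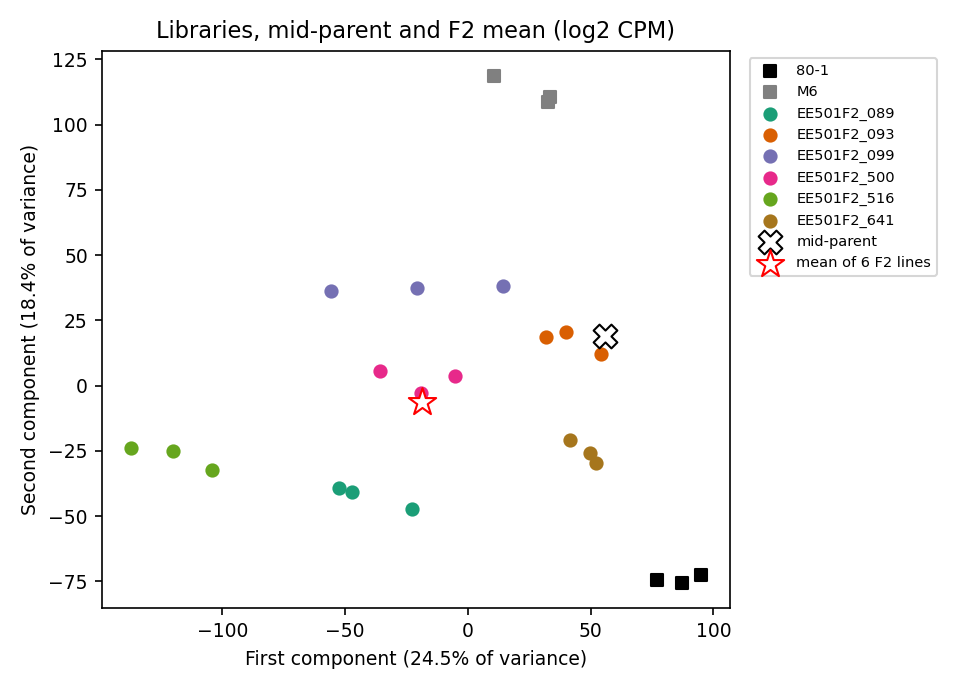
Scores of the 24 libraries on the first 2 principal components of log2 CPM, in score units, with squares for parents, circles for F2 plants, a cross for the mid-parent and a star for the mean of the F2 lines. Both parents lie to the right of the F2 mean (-18.7) on the first component, and EE501F2_516 lies farthest to the left.

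With plants as replicates, expression of the F2 mean differed from the mid-parent at a large share of the leaf transcriptome. On the log scale, 9172 of 21028 tested gene models (43.6%) were called by edgeR's quasi-likelihood test at a Benjamini-Hochberg adjusted p under 0.05, 4744 higher (22.6%) and 4428 lower (21.1%) in the F2 mean. The shifts were mostly moderate. The median absolute log2 difference was 0.645 in the models called higher and 0.67 in those called lower, and 1540 of the higher models (32.5%) and 1286 of the lower ones (29.0%) reached 1 on the log2 scale. Against the arithmetic mid-parent, a Wald test on the same fit called 8575 of 21005 models (40.8%), 4650 higher (22.1%) and 3925 lower (18.7%). The same direction was called on both scales at 4146 higher models (19.7%) and 3664 lower models (17.4%), while 12 models were called higher on the log scale and lower against the arithmetic mid-parent. These p-values rest on the spread between plants of 1 individual each, so they speak of these 8 lines. Scaling by library totals alone moved the log-scale split to 5793 higher and 3480 lower, or 62.5% higher against 51.7% with TMM.

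**Figure D2:**
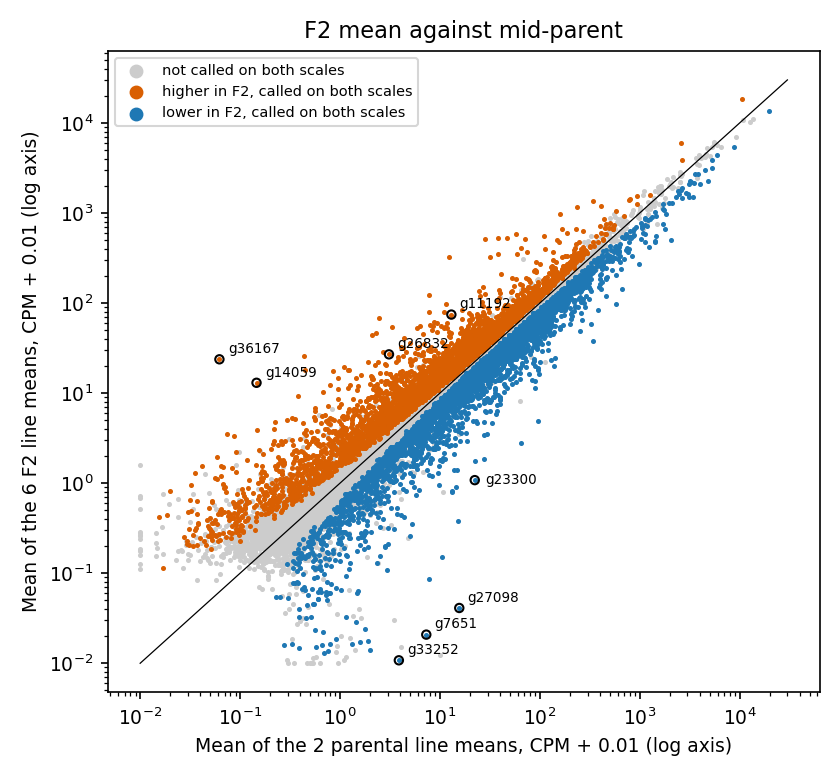
Mean of the 6 F2 line means against the mean of the 2 parental line means for 21028 gene models, both in CPM plus 0.01 on log axes, with the line of equality. Orange and blue points were called on both scales, 4146 higher and 3664 lower in the F2 mean, and the circled models are described in the text.

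The 6 lines lay at different distances from the mid-parent over these models, whose direction was fixed by the mean of the same lines. Over the models called higher, the median log2 distance from the geometric mid-parent was 0.885 in EE501F2_516 and 0.757 in EE501F2_089. It was 0.63 in EE501F2_500, 0.505 in EE501F2_099, 0.479 in EE501F2_641 and 0.313 in EE501F2_093. Over the models called lower, the order was the same, from -1.09 in EE501F2_516 to -0.227 in EE501F2_093. EE501F2_516 was thus the farthest from the mid-parent and EE501F2_093, the most deeply sequenced line, the nearest. Over all tested models the root mean square distance was 1.31 for EE501F2_516 and 0.818 for EE501F2_093. Each parent lay 0.712 from the mid-parent, less than any F2 line. The parents define the mid-parent and so lie equally far from it by construction, which makes this an unlike comparison. Without EE501F2_516 the log-scale test called 7713 models, and without EE501F2_641 it called 10820. All 6 line means lay above the arithmetic mid-parent at 2085 of the 4744 models called higher (44.0%), where 11.2% of all tested models had this. At 2461 of the 4428 models called lower (55.6%) all 6 lay below it, beside 14.5% of all tested models. These shares are descriptions, since the same line means made the calls.

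**Figure D3:**
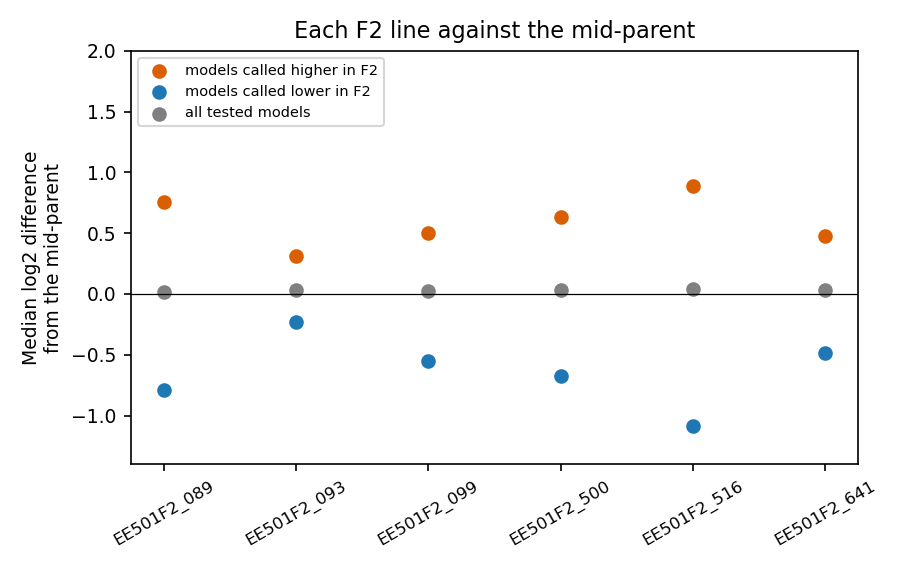
Median log2 difference of each F2 line from the geometric mid-parent, over the models called higher in the F2 mean, those called lower and all tested models. EE501F2_516 has the widest distance (0.885 and -1.09) and EE501F2_093 the narrowest (0.313 and -0.227), and the median over all models is near 0 in each line.

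With the line as the replicate of its generation, hardly any of these shifts passed the test. On counts summed over the plants of a line, edgeR's quasi-likelihood test of 6 F2 lines against 2 parents called 5 of 22010 models (0.0227%), all 5 lower in the F2 lines. At an unadjusted p under 0.05 there were 1601 models (7.27%), 806 higher (3.66%) and 795 lower (3.61%). The spread that counts here includes the segregation among the F2 lines and the difference between the parents. The number depended on the tool. DESeq2 called 260 models on the same sums, 166 higher and 94 lower, and a limma-voom fit that treated lines as random called 32, 4 higher and 28 lower.

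The 5 models were low in every F2 line and present in both parents. The labels do not say whether the parental plants sequenced are the individuals that were crossed, which was not tested and bears on what the mid-parent stands for. The lowest adjusted p was at g23300 (chromosome 10, 35682854 to 35685628, minus strand, 4 exons). It stood at 27.8, 29.4 and 24.5 CPM in the plants of 80-1 and at 18.4, 17.5 and 16.0 CPM in those of M6. In the 18 F2 plants it ranged from 0.609 to 1.74 CPM with a median of 1.01, so that no F2 plant came near a parent. The F2 lines averaged 1.07 ± 0.267 CPM (SD of line means, n = 6) against a mid-parent of 22.3 CPM, 20.8-fold lower, a log2 difference of -4.38 ± 0.303 (SE; edgeR, adjusted p = 0.00283).

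Its neighbour g23301 (35685669 to 35692104, minus strand, 4 exons) had the same pattern. The plants of 80-1 had 17.7, 14.7 and 15.2 CPM and those of M6 10.9, 10.4 and 9.9 CPM. The F2 plants had 0.353 to 1.5 CPM, with a median of 0.760. The F2 mean of 0.799 ± 0.185 CPM (SD of line means, n = 6) was 16.4-fold below the mid-parent of 13.1 CPM (log2 -4.04 ± 0.315; edgeR, adjusted p = 0.00481). Another model of the same stretch, g23292 (35639878 to 35644122, minus strand), had 10.5, 12.1 and 11.7 CPM in 80-1 and 6.88, 9.82 and 7.95 CPM in M6. In the F2 plants it had 0.385 to 1.46 CPM. Its F2 mean of 0.935 ± 0.144 CPM (SD, n = 6) was 10.5-fold below the mid-parent (log2 -3.42 ± 0.275; edgeR, adjusted p = 0.00481). In all 3 models every F2 plant lay below every parental plant.

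The stretch of 52.2 kb from g23292 to g23301 held 9 tested models, and the plant-level test called all 9, 5 lower and 4 higher. It was picked after these values were seen. Between the low models lay g23295 (35646980 to 35649840), whose F2 mean of 13 ± 6.06 CPM (SD, n = 6) exceeded 80-1 (0.738 CPM) and M6 (5.53 CPM) (log2 2.55 ± 0.183; edgeR, plants, adjusted p = 3.39e-09). The model g23297 (35662106 to 35662623) had 15.9 ± 6.12 CPM in the F2 lines beside 1.64 and 10.4 CPM. Neither was called with the line as the replicate (adjusted p = 0.679 and 0.701). The window from 35 to 40 Mb of chromosome 10, which contains this stretch, had the highest share of plant-level calls among 108 windows. Of its 79 tested models 60.8% were called, 21 higher and 27 lower, where the median window had 43.2% and the next highest 54.3%. The 9 models of the stretch are among these calls, so the window is no separate result. The model g23295 overlaps g23294 by coordinates from 35646980 to 35647201, and reads in that part could not be separated.

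The largest fall among the 5 was at g33252 (chromosome 1, 29977165 to 29979388, plus strand, 1 exon). The plants of 80-1 had 5.8, 4.44 and 5.19 CPM and those of M6 3.28, 3 and 1.5 CPM, 652 counts in all. The 18 F2 libraries held 1 count together, in a plant of EE501F2_093. The ratio of scaled counts, parents to F2, was 2330 with a 95% counting interval of 417 to 92200, which covers counting error alone (edgeR on lines, adjusted p = 0.00283). The call was lost without EE501F2_093 (adjusted p = 0.393) and without the plants numbered 1 (0.648), and the F2 libraries that remain in either case hold 0 counts. The model g26762 (chromosome 6, 30257576 to 30261977, plus strand, 2 exons) had 6.53, 6.42 and 6.53 CPM in 80-1, 4.39, 5.13 and 5.72 CPM in M6 and 0.416 to 1.09 CPM in the F2 plants. Its F2 mean was 0.727 ± 0.141 CPM (SD, n = 6), 7.96-fold below the mid-parent of 5.79 CPM (edgeR, adjusted p = 0.03). This call was lost on leaving out any of the 6 F2 lines, with adjusted p from 0.075 to 0.178, while the log2 difference stayed between -3.07 and -2.92. It was also lost with library totals (0.115) and without the plants numbered 1 (0.0584) or 3 (0.0682).

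No model was called higher in the F2 lines by edgeR on all 8 line sums, and 1 was on leaving out EE501F2_093 or EE501F2_500. Where the F2 mean reached 5 CPM, the smallest p-values in that direction were at g11192 and g26832. The model g11192 (chromosome 5, 40798780 to 40799616, plus strand, 1 exon) had 13.2, 14.6 and 14.2 CPM in 80-1 and 19.9, 8.03 and 7.87 CPM in M6. The F2 plants ranged from 23.1 to 117 CPM with a median of 76.3, all 18 above the highest parental plant. The F2 mean of 74.4 ± 20.6 CPM (SD, n = 6) was 5.74 times the mid-parent of 13 CPM (log2 2.54 ± 0.368; edgeR on lines, adjusted p = 0.187). This model passed without EE501F2_093 (adjusted p = 0.0358), in the limma-voom fit with random lines (0.0319) and by DESeq2 (2.55e-09), and its adjusted p over all alternatives ran up to 0.511. The model g26832 (chromosome 10, 28251344 to 28253500, plus strand, 4 exons) had 2.58 to 3.28 CPM in 80-1 and 2.74 to 3.99 CPM in M6. The F2 plants had 3.52 to 93.2 CPM, 17 of 18 above every parental plant, and their line means averaged 26.9 ± 11.9 CPM (SD, n = 6) against a mid-parent of 3.08 CPM (edgeR on lines, adjusted p = 0.459; DESeq2, 8.87e-07). Plants of a line differed widely here, with 93.2, 5.05 and 24.2 CPM in EE501F2_500 and 76.0, 8.02 and 3.52 CPM in EE501F2_641.

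**Figure D4:**
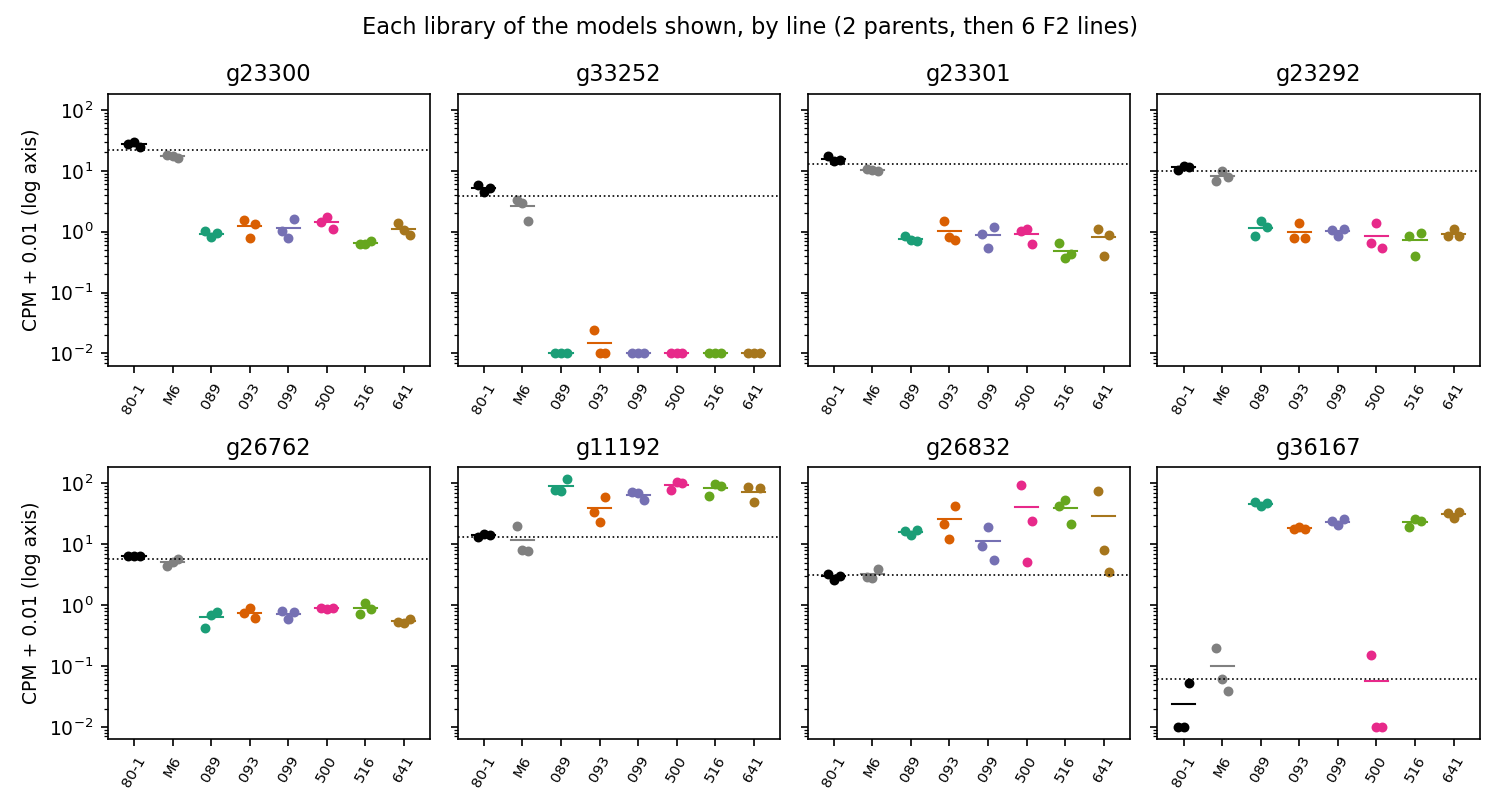
CPM plus 0.01 on a log axis in every library of 8 gene models, the 5 called lower with lines as replicates, then g11192, g26832 and g36167, by line, with bars at line means and a dotted line at the mid-parent. In the 5 low models all 18 F2 plants lie below all 6 parental plants, and in g11192 all lie above them.

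Models with the largest ratios of F2 mean to arithmetic mid-parent, among those called on both scales with at least 5 CPM, were at or near 0 in a whole generation or in single lines. The model g36167 (chromosome 8, 5367074 to 5367502) was read at 0.191 CPM or less in every parental plant, with 10 counts in all 6. In the F2 plants it ranged from 0 to 48.8 CPM with a median of 24.5. The line means were 46.3 (EE501F2_089), 30.9 (EE501F2_641), 23.6 (EE501F2_099), 23.1 (EE501F2_516) and 18.4 CPM (EE501F2_093), but 0.0477 CPM in EE501F2_500, which had 4 counts. So 5 lines were far above both parents and 1 line was at their level. The F2 mean was 455 times the mid-parent (Wald log2 8.90 ± 0.49, adjusted p = 1.53e-10). The log-scale call was lost without the plants numbered 1, with a log2 value of 7.54. EE501F2_500 then had 0 counts, where the log-scale contrast can have no defined value. With the line as the replicate g36167 was not called (edgeR adjusted p = 0.653). The model g14059 (chromosome 8, 28265327 to 28266202, 1 exon) had at most 0.335 CPM in a parental plant and 0.210 to 49.7 CPM in F2 plants. Its line means spread from 0.898 CPM in EE501F2_093 to 27.9 CPM in EE501F2_500, around a mean of 13 ± 12.8 CPM (SD, n = 6).

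The largest falls by the same rule were at models read mainly in 80-1. The model g7651 (chromosome 8, 1672736 to 1674638) had 19.4, 10.3 and 14.1 CPM in 80-1, 1 count in M6 and 7 counts in all 18 F2 libraries. The ratio of scaled counts, parents to F2, was 553 (95% counting interval 267 to 1380). Its log-scale call was lost without the plants numbered 3, with a log2 value of -5.27. M6 then had 0 counts, where the log-scale contrast can have no defined value. The model g27098 (chromosome 4, 36675439 to 36677351) had 30, 24.3 and 34.8 CPM in 80-1 and 1.53, 1.05 and 1.75 CPM in M6. All 18 F2 plants, with 0 to 0.164 CPM, lay below both parents. The F2 mean of 0.0311 ± 0.0295 CPM (SD, n = 6) was 501-fold below the mid-parent (Wald log2 -9.03 ± 0.502, adjusted p = 1.53e-10; edgeR on lines, adjusted p = 0.0887).

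Models whose parents were alike give the comparison in which the choice of mid-parent matters least, although the scale still sets the F2 mean. The parents differed at 7851 models (37.3%) by edgeR at an adjusted p under 0.05. At 9836 models they differed by under 0.5 on the log2 scale and were not called. Of these, 3991 (40.6%) were called on the log scale, 1978 higher (20.1%) and 2013 lower (20.5%), which is near the share over all tested models (43.6%). The arithmetic test called 39.4% of the same set, 2244 higher and 1634 lower, so the split moved with the scale here too. On the log scale, library totals gave 2075 higher and 1507 lower in this set, and leaving out the plants numbered 2 gave 2575 calls. The median absolute shift was 0.246 on the log2 scale, beside 0.333 over all tested models. Where the parents were called and differed by at least 4 on the log2 scale, the log-scale test gave 438 higher and 116 lower, and the arithmetic one gave 167 higher and 250 lower of the same 1115 models. The direction over models with strong parental differences thus depended on the scale, which sets both the mid-parent and the F2 mean.

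Among called models with like parents and at least 5 CPM in the higher of F2 mean and mid-parent, the largest log2 rise was at g22270 (chromosome 4, 28118235 to 28120163). The plants of 80-1 had 0.850, 3.17 and 4.23 CPM and those of M6 1.75, 1.69 and 3.06 CPM. All 18 F2 plants were higher, from 8.62 to 361 CPM with a median of 32.9. The line means ran from 13.6 CPM (EE501F2_093) to 248 CPM (EE501F2_516), and the next highest was 66.6 CPM (EE501F2_089). The log2 difference was 4.03 ± 0.39 (SE; edgeR, plants, adjusted p = 2.09e-07). The model g5378 (chromosome 6, 33856044 to 33858642) rose from a mid-parent of 1.23 CPM to 18.2 ± 12.4 CPM (SD, n = 6), with all 18 F2 plants (2.22 to 64 CPM) above all parental plants (0.923 to 2.10 CPM; edgeR, plants, adjusted p = 8.71e-06).

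The largest falls under the same limits came from some of the lines. At g26897 (chromosome 6, 31495248 to 31496580) the parents had 21.6 to 54.3 CPM. EE501F2_099 had 0 counts and EE501F2_089 had 1, while EE501F2_500 had 2.13, EE501F2_516 9.78, EE501F2_641 14.8 and EE501F2_093 18.8 CPM. Lines near 0 weigh heavily on a log scale, and a line at 0 counts leaves the size of the log-scale value ill defined. The fit gave a log2 difference of -5.58 ± 0.317 (SE; edgeR, plants, adjusted p = 9.8e-10). Over the alternatives this difference ran from -6.44 to -4.02, a range that the SE does not cover. The F2 mean of 7.6 CPM was 5.27-fold below the mid-parent of 40.1 CPM. At g37563 (chromosome 11, 9721316 to 9723067) EE501F2_500 had 0 counts, EE501F2_516 had 1 and EE501F2_093 had 8, but EE501F2_641 had 6.20 ± 6.35 CPM (SD, n = 3), with 0, 5.89 and 12.7 CPM in its plants. The parents had 4.97 to 11.1 CPM, so 2 plants of EE501F2_641 lay within or above their range.

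On the log scale, the F2 mean lay outside the range of the parents at 2666 models (12.7%). Each was called by edgeR against both parents in the same direction. This log-scale mean was above both parents at 1127 (5.36%) and below both at 1539 (7.32%). Library totals gave 1243 above and 1217 below, so the excess below both parents depended on the scaling. Without the plants numbered 2 the count was 1424, and without those numbered 3 it was 1507. Every F2 line mean lay above both parental means at 1063 models (5.06%) and below both at 1004 (4.77%), counted with no test. A log-scale mean lies lower where lines spread. The median SD between F2 lines was 0.531 on the log2 scale at the models called below both and 0.467 at those called above both. The part of this spread in the excess below was not tested.

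Between the parents, the lines were placed by a position with M6 at 0 and 80-1 at 1 on the linear CPM scale. It was taken over the 4662 models at which the parents were called and at least 1 apart on the log2 scale. The median position was 0.570 in EE501F2_641, 0.534 in EE501F2_089, 0.489 in EE501F2_093, 0.461 in EE501F2_500, 0.411 in EE501F2_516 and 0.319 in EE501F2_099. The mean of the 6 medians was 0.464 ± 0.0901 (SD, n = 6), which an exact permutation test over lines, flipping the signs of the distances from 0.5, did not separate from the mid-parent (two-sided p = 0.406, smallest possible 0.0312). The models are linked along chromosomes, so a median holds fewer independent units than models. In each line the median position was lower at models with 80-1 higher than at models with M6 higher, 0.210 against 0.452 in EE501F2_099 and 0.454 against 0.682 in EE501F2_641. At models with 80-1 higher all 6 line medians lay below 0.5, on the side of M6, and at models with M6 higher 5 of 6 lay above it, on the side of 80-1. Each median but the 1 of EE501F2_099 at models with M6 higher was thus on the side of the parent with the lower level. For the F2 mean, the median position towards the higher parent was 0.43 with 80-1 higher and 0.488 with M6 higher. The same parental values picked the models and set the scale, and their part in this lean was not tested. A lean to the lower parent can cancel over all models, so the permutation test above cannot show it.

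Single models often departed from the middle, although the mean of the line medians over all 4662 models was not separated from it. The F2 mean lay in the middle part of the parental interval, from 0.25 to 0.75, at 1874 of the 4662 models (40.2%), beyond 80-1 at 600 (12.9%) and beyond M6 at 616 (13.2%). By chromosome, the mean of the line medians ran from 0.365 ± 0.0975 on chromosome 10 to 0.619 ± 0.194 on chromosome 2 (SD, n = 6 lines). The lines spread widest on chromosome 6, from 0.103 in EE501F2_099 to 0.721 in EE501F2_641.

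**Figure D5:**
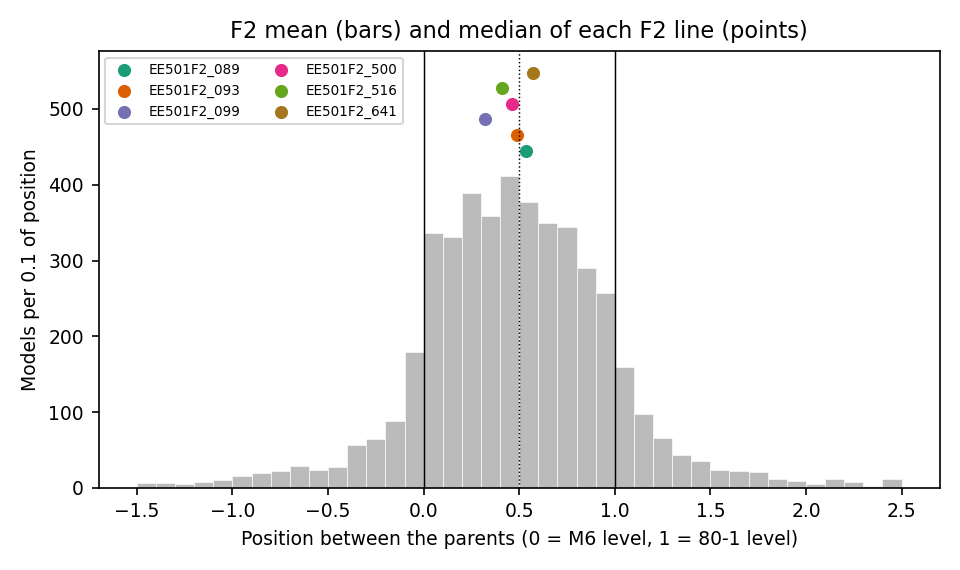
Number of gene models by position of the F2 mean between the parents (bars of 0.1; 0 is the M6 level, 1 the 80-1 level, 128 of 4662 models lie beyond the axis), with the median of each F2 line as a point placed above the bars. The line medians run from 0.319 to 0.570 on both sides of the mid-parent at 0.5.

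Models at which all 6 lines stood near 1 parent on the linear position scale stood almost always near the parent with the lower level. Of the models placed by position, 2366 reached 5 CPM in the higher parent. Of these, 54 had all 6 line means within 0.25 of the 80-1 position, and 80-1 was the lower parent in all 54. At 100 models all lines were within 0.25 of M6, and M6 was the lower parent in 99. In total 153 models stood at the lower parent and 1 at the higher one. Plants spread more at high levels: all 3 plants of the higher parent lay within the same distance of their own mean at 57.4% of the models, against 95.6% for the lower parent. The distance of 0.25 was set on the linear scale, so near a parent close to 0 it admits lines many times above that parent. Near the higher parent it admits only lines of a similar level. The parts of this scale and of the spread between plants in the count were not tested.

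The models nearest to the M6 position were g7651, described above, and g7648 (chromosome 8, 1645353 to 1645886, 1 exon), both in the same stretch of chromosome 8. The model g7648 had 31.9, 14.8 and 13.4 CPM in 80-1 and 0 counts in M6. In the 18 F2 libraries it had 3 counts, all in 1 plant of EE501F2_093. Nearest to the 80-1 position were g17457 (chromosome 9, 27545335 to 27549966, 7 exons) and g27313 (chromosome 10, 1457200 to 1460266, 4 exons). The model g17457 had 11.6, 3.33 and 5.23 CPM in M6, 0.0845 to 0.544 CPM in 80-1 and 0 to 1.15 CPM in the F2 plants, which overlapped 80-1. The model g27313 had 6.43, 6.87 and 7.67 CPM in M6, 0 counts in 80-1 and 24 counts in the F2 libraries, 22 of them in EE501F2_093.

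Some models were read in 1 generation alone. On the chromosomes, 1662 models had counts in F2 libraries and 0 in all 6 parental ones, but just 22 of them averaged at least 0.1 CPM and 1 at least 1 CPM. The F2 libraries together were deeper, so 3 counts correspond to 0.00468 CPM there and to 0.0167 CPM in the parents. The highest was g16302 (chromosome 12, 32994263 to 32995558), at 3.71 CPM in EE501F2_099, 2.71 in EE501F2_500, 1.83 in EE501F2_641 and 1.30 in EE501F2_516, with 3 counts in EE501F2_089 and 0 in EE501F2_093. Its level over the F2 libraries was at least 86.9-fold higher than in the parents, with the floor of 3 counts set over the parental libraries together. The 95% counting interval of the ratio of parents to F2, which also holds the error of the F2 counts, reached up to 0.0142. The next was g29450 (chromosome 3, 30497542 to 30498616), at least 46.0-fold higher by the same floor, with an interval of that ratio up to 0.0269. It had 6.48 CPM in 1 plant of EE501F2_500 and 0 and 0.652 CPM in the other plants of that line.

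In the other direction, 330 models had counts in parents and 0 in all 18 F2 libraries, and 20 of these averaged at least 0.1 CPM. The model g20938 (chromosome 9, 7179722 to 7180509) had 2.58, 1.64 and 1.44 CPM in M6, 0 counts in 80-1 and 0 in the F2, at least 234-fold lower in the F2 libraries. The model g27674 (chromosome 3, 42149052 to 42154591, 17 exons) had 0.414, 1.56 and 1.67 CPM in M6 and 1 count in 80-1, at least 160-fold lower in the F2 libraries. Both folds use a floor of 3 counts over the F2 libraries together and leave out the error of the parental counts. With that error, the 95% counting interval of parents over F2 began at 188 for g20938 and at 128 for g27674.

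Calls were spread over the genome. The share called by the plant-level test on the log scale ran from 39.1% of tested models on chromosome 11 to 47.7% on chromosome 5. The share of calls that were higher in the F2 mean was 58.5% on chromosome 12 (405 higher, 287 lower) and 47.9 to 54.1% on the others. Among models with like parents the share called ran from 37.4% on chromosome 9 to 45.1% on chromosome 10.

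Level and length of the models moved with the calls. With the models cut into 5 equal bins by mean level, in the lowest bin (up to 1.43 CPM) 29.7% were called, and in the highest bin (from 43.3 CPM) 52.9%. In the highest bin 45.0% of calls were higher in the F2 mean, against 51.0 to 55.5% in the others. With 5 bins by length, in the shortest one (201 to 846 bases) 957 were called higher and 676 lower, 58.6% higher. In the longest (2514 to 16185 bases) there were 861 higher and 946 lower, 47.6% higher. The part of length in the direction of the calls was not tested. Models called lower also varied more between F2 lines, with a median SD of 0.474 on the log2 scale, than models called higher (0.412) and models not called (0.325).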

How the data were processed

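Leaf RNA of 8 Solanum chacoense lines, 3 plants each, was sequenced, with RNA integrity scores of 8 or more per the labels' protocols. The deposited values are raw counts per gene model, 1 column for each library. Tools named in the submitters' processing notes, without their roles, are Trimmomatic 0.35, Subread, STAR 2.6.0, DESeq2 and featureCounts 1.5.3. The table also holds model length in bases, another deposited unit, used to describe models. Build, annotation, strand use and handling of multi-mapped reads were not stated in the sources used here, so reads of near-identical copies or antisense neighbours could not be separated. None of the models named by rule overlapped another in coordinates. Of 37740 models, 7954 unplaced ones had 0 counts in every library and entered no test.

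The analysis used edgeR 4.0.16 under R 4.3.3. After filterByExpr and TMM scaling, a quasi-likelihood fit giving each line its mean (24 libraries, 16 residual degrees of freedom) was fitted to 21028 models. The contrast was the mean of the F2 coefficients minus the mean of the parental ones. Where a line has 0 counts (798 models, 3.79%), the log-scale contrast can have no defined value and its p may be 1. The arithmetic test took the log ratio of the arithmetic means of fitted line means, with a standard error by the delta method from the quasi-likelihood covariance. It gave no value at 23 models. Counts summed per line were tested with 6 F2 lines against 2 parents (22010 models, 6 residual degrees of freedom). Benjamini-Hochberg adjustment ran over all models of a test, with a threshold of 0.05. Standard errors of log2 differences are the estimate divided by the root of the F statistic. The log-scale contrast, the arithmetic test and the test on line sums were also run on counts simulated from the fitted data with known changes. The calls outside both parents and the position test were not simulated. DESeq2 1.42.0 and limma 3.58.1 were alternatives.

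Plants of the same line differed beyond counting noise (chi-square per degree of freedom 11.1 to 222 over 24 pairs), so each was kept. Samples were grouped by line as titled. Per list, 2 models per direction were taken: the largest ratios among models called on both scales, the smallest p with lines as replicates and the largest log2 differences among calls where the parents were alike (for these 3, the larger of F2 mean and mid-parent had to reach 5 CPM), the highest levels read in 1 generation alone and the positions nearest a parent. The other models called with lines as replicates and the neighbours on chromosome 10 were added after their values were seen. Comparison, lists and rules were chosen with earlier results of these data known.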

Additional observations from a re-analysis of the deposited data

Results flagged for a closer look

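Among the 6 F2 line means of each model described, 4 models had 1 line standing apart by Dixon's gap ratio. Chance alone flags about 1 of 20 groups of normally distributed values, a rate that does not hold for lines at 0 counts. At g22270, EE501F2_516 stood at 248 CPM and the other lines at 13.6 to 66.6 CPM. The other 3 flags were all in EE501F2_093, the deepest line, at levels near 0. It had 0.104 CPM of g27313, where the others had at most 0.0111 CPM. It had 0.0141 CPM of g7648 and 0.00472 CPM of g33252, where the others had 0 counts, so that any count in 1 line gives the flag. The part of depth in these 3 was not tested.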

How the results depend on the processing

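Of 103 recomputed counts and positions, 95 stayed within 1.5 times of the reported count or on the same side of the mid-parent and the threshold. Leaving out the plants of each replicate number in turn gave 6323 to 6895 models on the log scale and 5761 to 6011 against the arithmetic mid-parent. It gave 5090 to 5372 on both scales, 2575 to 3235 where the parents were alike, 1424 to 1869 outside the parents and 3 to 6 with lines as replicates. These fits hold fewer plants. With lines as replicates, DESeq2 called 260 and the limma-voom fit with random lines 32, and the cause of the difference was not tested. Leaving out 1 F2 line gave 7713 to 10820 models on the log scale and 4 or 5 with lines as replicates. Library totals moved the median log2 difference of all models from 0.0287 to 0.119 and the split of arithmetic calls from 54.2% to 64.9% higher. The mean position ran from 0.447 to 0.499 over all alternatives. The replicate block gave 9059 models on the log scale in place of 9172, 8499 arithmetic calls, 3943 with like parents, 2603 outside the parents and a position of 0.464. Over 84 pairs of same-numbered libraries the correlation of deviations from line means had a median of 0.0128. It ran from -0.3799 to 0.2965, the highest between the plants numbered 1 of EE501F2_089 and EE501F2_093, and 17 pairs exceeded 0.1. A median over all pairs cannot exclude a block that covers some of the lines, which was not tested. No line-level block was possible because the plants were summed. Of 287 values for single models no tested difference changed direction, 13 lost their call and 4 gained one. Counts recomputed on both scales, and those for the line-level models not named by rule, were chosen after seeing the data. Depth limits models near 0: a total of 3 counts is 0.0167 CPM over the parental libraries.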
